A study of Mus musculus with 15 samples.

Results

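Levels of 10 mouse immediate early genes were read across N2a cells with and without knockdown of Opa1. Some knockdown cells were also given plasmids for OPA1, as wild type or as 1 of the substituted forms V560F and V465F. The genes were the EGR factors Egr1, Egr2 and Egr3, the immediate early response genes Ier2, Ier3 and Ier5, the transcription factor Srf, the nuclear receptor Nr4a1, and the Krüppel-like factors Klf4 and Klf6. They were taken by symbol from a table of 22507 genes, all 10 were found, and all 10 were among the 13074 genes with enough counts to be tested. They were chosen by their measured levels in these data, taken here to mean the fold changes of the mutant groups, so every comparison that involves V560F or V465F is given as a description, without a p-value for these genes. Which levels were used is not stated. The p-values of the 10 genes in the other comparisons hold only if those comparisons played no part in the choice.

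N2a is a mouse neuroblastoma line, and OPA1 is a GTPase of the inner mitochondrial membrane needed for its fusion. All 15 libraries came from transfected cells on day 3 after siRNA at 50 nM was delivered with a plasmid, with 3 libraries in each of 5 groups. The control group had control siRNA with control plasmid. The knockdown group had siRNA against Opa1 with control plasmid, and the other groups had the same siRNA with a plasmid for wild-type OPA1, OPA1-V560F or OPA1-V465F. Every group is therefore N2a under lipid transfection, untransfected cells were not analysed here, and the labels give neither the species nor the promoter of the plasmid insert. Separate cultures are not stated for the 3 libraries of a group, and the p-values below cover no more than the difference among libraries, part of which may be technical.

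Immediate early genes are transcribed within minutes of a stimulus, without new protein synthesis. Growth factors and depolarization act on them through the ERK and calcium pathways, which reach the serum response factor SRF with its ETS partners at CArG boxes and the factor CREB at cyclic AMP response elements. SRF also works with the actin-sensing cofactors MRTF-A and MRTF-B, and several products of the program, among them the EGR proteins, are themselves transcription factors that pass the signal on. In neurons Egr1 and Nr4a1 are widely used as markers of recent activity.

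Stretches of DNA before annotated starts were searched for the elements named above. Windows of 250 bases that end at the start were read from RefSeq (GRCm38.p6) for 7 of the 10 genes: Egr2, Ier3, Ier5, Srf, Nr4a1, Klf4 and Klf6. Those of Egr1, Egr3 and Ier2 were not analysed here. A CArG box, searched on both strands, was present in 1.47% of all windows (482 of 32851), and among these genes it was found before Srf and Egr2. The Srf window, chr17:46556163-46556412 on the minus strand, and the Egr2 window, chr10:67537619-67537868 on the plus strand, are printed 5′ to 3′ with the CArG boxes in capitals, because, of the 7, they are the genes whose window holds one.
Srf: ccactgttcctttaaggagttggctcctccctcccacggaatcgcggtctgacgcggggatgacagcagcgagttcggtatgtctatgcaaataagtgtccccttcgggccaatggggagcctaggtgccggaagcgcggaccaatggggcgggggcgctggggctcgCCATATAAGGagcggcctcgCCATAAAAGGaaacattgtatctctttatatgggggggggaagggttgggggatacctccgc
Egr2: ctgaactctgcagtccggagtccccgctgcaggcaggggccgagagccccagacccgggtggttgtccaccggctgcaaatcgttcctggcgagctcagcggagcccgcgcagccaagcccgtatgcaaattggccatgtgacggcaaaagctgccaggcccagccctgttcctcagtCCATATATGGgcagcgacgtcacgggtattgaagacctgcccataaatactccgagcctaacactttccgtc
The Srf window held 2 boxes, 82 to 73 and 62 to 53 bases before the start, and the Egr2 window held 1, 72 to 63 bases before it. Egr2 has further annotated starts, and 4 of its 5 windows held a CArG box; 3 of these overlap and share the box printed, so the 4 windows carry 2 distinct boxes. The core of the cyclic AMP response element, TGACG, was commoner, at 17.8% of all windows on either strand, and lay before Egr2, Klf4, Nr4a1 and Srf. Nr4a1 had 4 copies, all on the opposite strand and so read as CGTCA, in the window chr15:101266596-101266845 on the plus strand. It is printed with those copies in capitals, and was chosen after the matches were seen.
Nr4a1: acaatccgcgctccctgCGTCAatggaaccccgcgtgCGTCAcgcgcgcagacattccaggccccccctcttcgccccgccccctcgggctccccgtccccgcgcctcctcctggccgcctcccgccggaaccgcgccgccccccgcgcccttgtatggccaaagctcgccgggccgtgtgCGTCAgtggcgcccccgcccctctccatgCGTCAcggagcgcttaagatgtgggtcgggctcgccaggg
The full element TGACGTCA (1.55% of all windows) and the EGR site GCGTGGGCG (0.536%) were found before none of the 7 genes. The GC box GGGCGG was in at least 1 window of all 7 genes and in 8 of their 11 windows, against 32.7% of all windows. The ETS core GGAAG was in 4 of the 11, from Egr2, Ier3, Klf4 and Srf, against 64.1%. The TATA box TATAAA, in 12.4% of all windows on either strand, was before Srf only. That match was on the opposite strand and so read as TTTATA, 38 to 33 bases before the start. These matches describe the letters and are not measurements of binding.

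**Figure D1:**
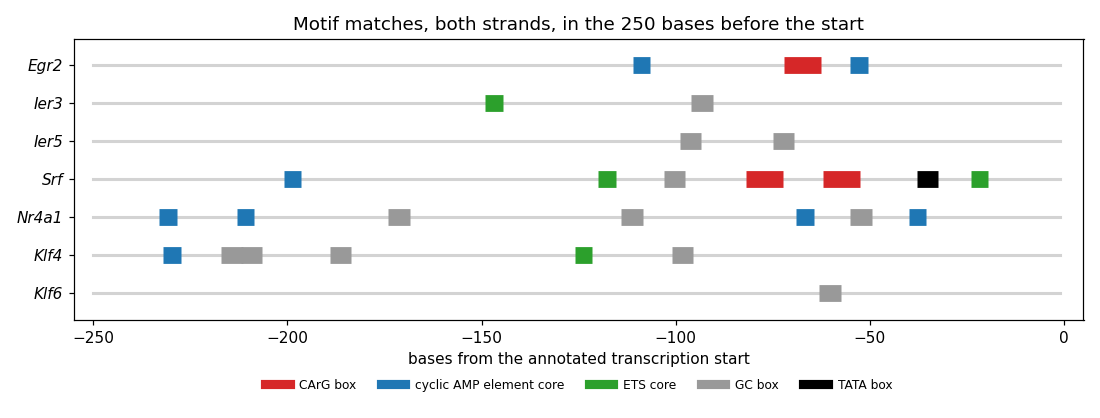
Positions of motif matches in the 250 bases before the annotated start of 7 genes. The horizontal axis is the distance from the start in bases, each grey line is 1 window (for Egr2, the printed one), and colours mark the motifs. CArG boxes stand before Egr2 and Srf only among the 7 genes, and the 4 cyclic AMP element cores before Nr4a1 are spread over the window.

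Deposited counts summed to 20070123 to 27809960 per library. The cells carried the markers of their line: 13 of 13 sympathetic neuroblastoma markers reached 1 FPKM (the deposited level, per unit of gene length and of library total), with a summed level of 1015 to 1226 FPKM among libraries. None of 4 fibroblast and none of 3 epithelial markers did, and of 3 blood markers only Cd74 did, at 75.3 FPKM on average, with Ptprc, the defining one, at 0.000512 FPKM. Of 4 glial and endothelial markers, Pecam1 (3.50 FPKM) and Mbp (2.13 FPKM) did, with Gfap at 0.0167 and Cdh5 at 0.000671 FPKM, and their sum was 6.12 to 7.50 FPKM in control and 3.96 to 5.14 FPKM with V560F. The part of these markers in the results was not tested. Opa1 fell with the siRNA, from 95.9 ± 4.94 CPM in control to 36.8 ± 2.52 CPM in knockdown (mean ± SD, n = 3; log2 fold change -1.38 ± 0.0834 SE, edgeR adjusted p = 8.53e-10), and stood at 31.4 to 33.9 CPM on average in the groups given OPA1 plasmids. These counts therefore do not show whether the plasmid inserts were expressed. Libraries also differed in how a gene's level moved with its length. The slope of log2 level on log10 length was 0.42 ± 0.0935 in control, 0.21 ± 0.00777 in knockdown, 0.10 ± 0.153 with wild-type OPA1, -0.49 ± 0.298 with V560F and -0.25 ± 0.0461 with V465F (mean ± SD, n = 3), and its lowest value, -0.832, was in V560F replicate 2. Short genes thus read higher in the mutant groups, and values corrected for length and GC content stand beside many of the fold changes below. In bulk RNA, a change in the number of cells that express a gene and a change in its RNA per cell cannot be told apart.

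Levels below are CPM, counts scaled to library size with TMM factors, listed in the order of replicates 1, 2 and 3. Groups without overlap were common among the 13074 genes tested. In knockdown against control 3766 genes were higher and 3207 lower without overlap, and in wild type against knockdown 1056 and 1270. Against wild type the counts were 3340 and 3476 for V560F and 3218 and 3358 for V465F. For V560F against control they were 4310 and 4849. Steps over several groups were not counted over all genes. Per unit of gene length, Klf6 was the most abundant of the 10 in all 5 groups, at 44.2 to 74.5 FPKM over the group means, followed by Egr1 or Ier3, while Egr3 and Egr2 were the least abundant, with no group mean above 0.529 FPKM.

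**Figure D2:**
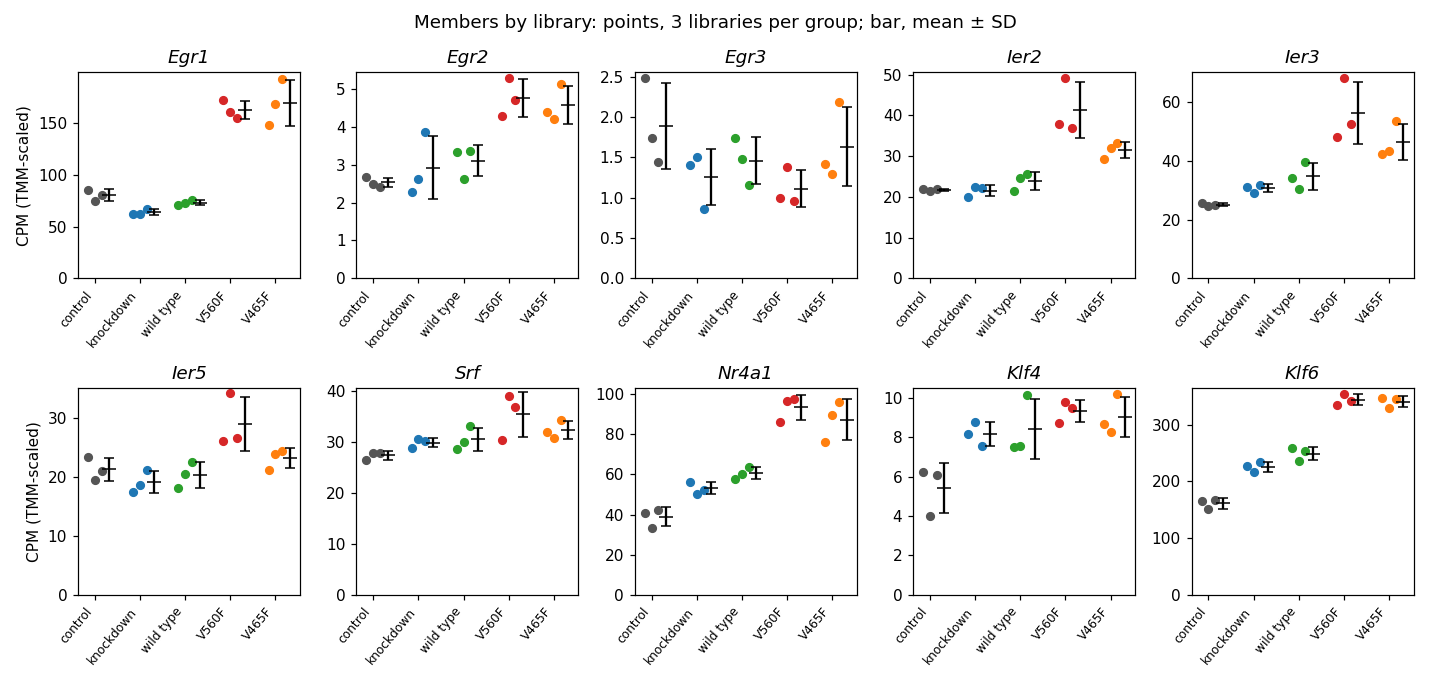
Level of each of the 10 genes in every library. The vertical axes are TMM-scaled CPM from 0, points are the 3 libraries of each group, and the black bar beside them is mean ± SD. Egr1 is high in both mutant groups (149 to 193 CPM) and at or under 85.8 CPM in the other 9 libraries, Klf6 and Nr4a1 climb from control to the mutants, and Egr3 overlaps between most groups.

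Egr1 encodes a zinc-finger factor that binds GC-rich sites and is among the most inducible genes of the program (Entrez gene 13653). It stood at 85.8, 75.2 and 81.0 CPM in control and at 62.4, 62.4 and 67.6 CPM in knockdown. With wild-type OPA1 it was at 71.1, 72.6 and 75.9 CPM, with V560F at 173, 161 and 155 CPM, and with V465F at 149, 168 and 193 CPM. The 6 mutant libraries lay above the other 9 with a wide gap, and the knockdown libraries lay below all control libraries. Egr1 fell with the knockdown (log2 fold change -0.33 ± 0.0802, edgeR adjusted p = 0.00318, n = 3 per group). Against wild type it was higher by 1.15 ± 0.0800 (95% interval 0.99 to 1.32) with V560F and by 1.22 ± 0.0800 (1.05 to 1.38) with V465F, or 2.23-fold and 2.32-fold. It was also above control, by 1.01 ± 0.0797 and 1.08 ± 0.0796, so in its order of means knockdown was lowest and the mutants highest. Ier2 and Ier5 had knockdown lowest and the mutants highest too, though with knockdown and control overlapping. For most other members control was lowest. Correction for length and GC content left its mutant values nearly where they were, at 1.17 and 1.23.

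Egr2, which directs myelination by Schwann cells and hindbrain patterning (Entrez gene 13654), was low, with 60 to 103 counts per library. It stood at 2.67, 2.50 and 2.42 CPM in control, at 2.27, 2.63 and 3.85 CPM in knockdown and at 3.33, 2.62 and 3.35 CPM with wild-type OPA1. With V560F it was at 4.29, 5.28 and 4.71 CPM and with V465F at 4.39, 4.19 and 5.12 CPM. The mutant libraries were the 6 highest, while control, knockdown and wild type overlapped. The knockdown value of 0.20 ± 0.204 did not pass the test (edgeR adjusted p = 0.465). Values against wild type were 0.62 ± 0.197 for V560F and 0.56 ± 0.197 for V465F, and became 0.86 and 0.68 after correction for length and GC content. On the log2(FPKM + 1) scale, which compresses genes this low, they were 0.10 and 0.11. Against knockdown they were 0.71 ± 0.200 and 0.65 ± 0.199.

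Egr3, a relative induced with Egr1 in neurons and lymphocytes (Entrez gene 13655), was at the limit of what these libraries resolve, with 17 to 64 counts each. Its levels were 2.48, 1.74 and 1.44 CPM in control, 1.40, 1.51 and 0.860 CPM in knockdown and 1.74, 1.48 and 1.16 CPM with wild-type OPA1. They were 0.990, 1.38 and 0.964 CPM with V560F and 1.41, 1.29 and 2.19 CPM with V465F. Neighbouring groups in the order of means overlapped throughout. The knockdown value of -0.58 ± 0.298 (95% interval -1.19 to 0.04) did not pass the test (edgeR adjusted p = 0.136). Against wild type the values were -0.39 ± 0.326 (-1.07 to 0.29) for V560F and 0.17 ± 0.306 (-0.47 to 0.80) for V465F, the last turning to -0.01 on the log2(FPKM + 1) scale, and both intervals include 0. Only V560F against control separated the libraries, at -0.76 ± 0.318, with Egr3 lower in V560F. Without control replicate 1, its highest library, that value was -0.52 and not called, nor was it called without control replicate 2 or V560F replicate 1 or 3 (-0.81 to -0.66). The call also ended with the correction for length and GC content. On the log2(FPKM + 1) scale Egr3 was called at -0.31, where the median of all genes was -0.27.

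Ier2 encodes a short nuclear protein of the serum response (Entrez gene 15936). Its control libraries stood at 21.9, 21.5 and 21.8 CPM, its knockdown libraries at 20.0, 22.5 and 22.1 CPM and its wild-type libraries at 21.5, 24.6 and 25.5 CPM. With V560F it was at 37.8, 49.2 and 37.0 CPM and with V465F at 29.3, 31.9 and 33.3 CPM. V560F lay above V465F without overlap, and V465F above the other groups. The knockdown value was -0.01 ± 0.101 (95% interval -0.22 to 0.20, edgeR adjusted p = 0.930; 0.00 by DESeq2). Against wild type the value was 0.79 ± 0.0991 for V560F, 0.65 without V560F replicate 2, and 0.40 ± 0.0999 for V465F. Ier2 is short, at 1522 bases (13.5th percentile of the genes tested), and the corrected values were 0.59 and 0.29.

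Ier3, a stress-induced gene whose product modulates ERK signalling and cell survival (Entrez gene 15937), is shorter still, at 1090 bases (6.95th percentile). It was at 25.7, 24.6 and 24.8 CPM in control, 31.1, 29.2 and 31.7 CPM in knockdown and 34.0, 30.5 and 39.6 CPM with wild-type OPA1. It was at 48.1, 68.0 and 52.4 CPM with V560F and at 42.2, 43.5 and 53.4 CPM with V465F. Control was lowest and both mutants highest, with no overlap between either mutant and wild type. The knockdown value was 0.29 ± 0.115 at an edgeR adjusted p of 0.04996, just under the threshold of 0.05. Leaving out any 1 of the 6 libraries ended that call (0.27 to 0.33, edgeR adjusted p = 0.0642 to 0.136), as did the correction for length and GC content (0.15, edgeR adjusted p = 0.144). Against wild type it was higher by 0.70 ± 0.112 with V560F and by 0.42 ± 0.112 with V465F. The corrected values were 0.31 and 0.16, the largest drop among the 10 genes. The part of the length trend in these values was not tested.

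Ier5, which in human cells is linked to heat shock factor activity (Entrez gene 15939), had the smallest mutant values of the 3 IER genes before correction for length and GC content. Its levels were 23.3, 19.4 and 21.0 CPM in control, 17.4, 18.6 and 21.1 CPM in knockdown and 18.01, 20.5 and 22.5 CPM with wild-type OPA1. They were 26.1, 34.2 and 26.5 CPM with V560F and 21.2, 23.8 and 24.4 CPM with V465F. Only V560F stood clear of the rest. The knockdown value was -0.16 ± 0.113 (95% interval -0.39 to 0.07, edgeR adjusted p = 0.282). Against wild type it was higher by 0.51 ± 0.113 with V560F, with a value of 0.18 ± 0.114 (-0.05 to 0.42) for V465F. The corrected values were 0.52 and 0.19, above the 0.31 and 0.16 of Ier3.

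Srf encodes the CArG-binding factor of the program, and its own window above holds 2 CArG boxes (Entrez gene 20807). It was at 26.4, 27.8 and 27.8 CPM in control, 28.8, 30.5 and 30.2 CPM in knockdown and 28.6, 30.0 and 33.0 CPM with wild-type OPA1. It was at 30.4, 39.0 and 36.8 CPM with V560F and at 31.9, 30.7 and 34.4 CPM with V465F. Each mutant group overlapped wild type, and control alone lay below every other group. The knockdown value was 0.13 ± 0.0866 (edgeR adjusted p = 0.264). It was 0.27 after correction for length and GC content (edgeR adjusted p = 0.0207), and -0.02 on the log2(FPKM + 1) scale. Values against wild type were 0.21 ± 0.0871 for V560F and 0.08 ± 0.0871 for V465F, and they changed sign to -0.04 and -0.07 on the log2(FPKM + 1) scale. That scale, which has no correction for library composition, moved the median of all genes by -0.16 and -0.11 in those comparisons, and relative to it Srf was at 0.11 and 0.04. An antisense non-coding gene and a microRNA gene overlap Srf in the annotation, and a strand setting for the counting is not given in the sources used here.

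Nr4a1 encodes the orphan nuclear receptor Nur77, an activity-induced regulator of metabolism and cell death (Entrez gene 15370). It stood at 40.8, 33.4 and 42.4 CPM in control, at 56.3, 50.4 and 52.4 CPM in knockdown and at 57.8, 60.2 and 63.7 CPM with wild-type OPA1. With V560F it was at 86.3, 96.5 and 97.8 CPM and with V465F at 76.1, 89.5 and 96.2 CPM. The groups formed steps without overlap from control to knockdown to wild type to the mutants, which overlapped each other. Nr4a1 rose with the knockdown by 0.45 ± 0.0911 (edgeR adjusted p = 0.000787). Against wild type it was higher by 0.63 ± 0.0892 with V560F and by 0.53 ± 0.0891 with V465F, and against control by 1.27 ± 0.0912 and 1.17 ± 0.0911, or 2.41-fold and 2.25-fold. The correction for length and GC content raised the values against wild type to 0.82 and 0.66.

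Klf6, a broadly expressed zinc-finger factor of injury and growth control (Entrez gene 23849), was read from 4268 to 6998 counts per library. It was at 165, 151 and 167 CPM in control, 227, 216 and 234 CPM in knockdown and 259, 235 and 253 CPM with wild-type OPA1. It was at 335, 354 and 343 CPM with V560F and at 348, 330 and 345 CPM with V465F. Here too control, knockdown, wild type and the mutants formed steps without overlap. Klf6 rose with the knockdown by 0.49 ± 0.0613 (edgeR adjusted p = 8.87e-06). Against wild type it was higher by 0.47 ± 0.0610 with V560F and by 0.45 ± 0.0609 with V465F. Both mutants stood 2.14-fold and 2.12-fold above control.

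Klf4, a factor of pluripotency and epithelial differentiation that restrains axon growth in neurons (Entrez gene 16600), was low, with 121 to 273 counts per library. It was at 6.23, 3.97 and 6.08 CPM in control, 8.17, 8.77 and 7.57 CPM in knockdown and 7.50, 7.57 and 10.2 CPM with wild-type OPA1. It was at 8.75, 9.80 and 9.47 CPM with V560F and at 8.69, 8.27 and 10.2 CPM with V465F. Control lay below all 12 libraries that had the siRNA, and those overlapped among themselves. Klf4 rose with the knockdown by 0.60 ± 0.162 (edgeR adjusted p = 0.00693), a call that ended without control replicate 2, the lowest library (0.41, edgeR adjusted p = 0.0631). Values against wild type were 0.15 ± 0.159 for V560F and 0.11 ± 0.158 for V465F, at -0.05 and -0.03 on the log2(FPKM + 1) scale and at 0.44 and 0.32 after correction for length and GC content.

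Knockdown against control compares cells that differ in the siRNA. Loss of Opa1 and other effects of the siRNA cannot be told apart here. Nr4a1, Klf4, Klf6 and Ier3 rose and Egr1 fell, and Egr2, Egr3, Ier2, Ier5 and Srf did not pass the test. That is 5 of 10 called, where edgeR called 35.9% of all genes tested (19.9% higher, 16% lower). The members' median log2 fold change was 0.16, against 0.01 over all genes. The members were not random draws, and no test was made of the difference between these shares. Their p-values for this comparison hold only if it played no part in their choice, which is not known. With 3 libraries against 3, an exact two-sided permutation test cannot go below p = 0.1, the value it gave for Egr1, Ier3, Srf, Nr4a1, Klf4 and Klf6.

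Wild-type OPA1 against knockdown compares cells that differ in the plasmid. Opa1 itself was at -0.23 ± 0.0855 in it (edgeR adjusted p = 0.522), so expression of the insert is not visible in these counts. The values below therefore cannot decide whether restored OPA1 returns these genes to control. Every member's value was between 0.03 and 0.21 and none passed the test, as none did over the whole table (0% called by edgeR). Egr1 at 0.19 ± 0.0804 (95% interval 0.02 to 0.36, edgeR adjusted p = 0.537), Nr4a1 at 0.19 ± 0.0896 (0.01 to 0.38, edgeR adjusted p = 0.553) and Klf6 at 0.14 ± 0.0609 (0.02 to 0.27, edgeR adjusted p = 0.537) were the 3 with an unadjusted p under 0.05. DESeq2 called 0 members and 5 genes in all, and 1157 genes had an unadjusted p under 0.05 by edgeR. For Egr2, Ier2, Ier3, Srf, Nr4a1, Klf4 and Klf6 the wild-type mean lay farther from control than the knockdown mean, and for Egr1, Egr3 and Ier5 nearer to it, by amounts that did not pass the test.

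Each mutant against wild type compares cells that differ in the plasmid. For V560F, 8 of 10 members were called, all higher (Egr1, Egr2, Ier2, Ier3, Ier5, Srf, Nr4a1 and Klf6), beside 49.4% of all genes (24.5% higher). For V465F, 6 of 10 were called, all higher (Egr1, Egr2, Ier2, Ier3, Nr4a1 and Klf6), beside 38.2% (18.1% higher). Since the members were picked with these contrasts in view, nothing is read from the shares. On the log2(FPKM + 1) scale 5 were called in each, without Egr2 for either mutant and without Ier5 and Srf for V560F. Over the whole table that scale also shifted the split of calls, from 47.1 to 55.4% higher by edgeR to 17.8 to 22.5% over the 7 comparisons with many calls. Some calls rested on single libraries. Srf was not called for V560F without V560F replicate 2 (0.13) or 3 (0.18), or wild-type replicate 1 (0.17) or 2 (0.20). Egr2 was not called for V560F without V560F replicate 2 (0.54) or wild-type replicate 2 (0.51), nor for V465F without V465F replicate 3 (0.47) or wild-type replicate 2 (0.45). Ier3 was not called for V465F without V465F replicate 3 (0.30), nor after correction for length and GC content (0.16). With that correction Srf was called for both mutants (0.48 for V560F and 0.27 for V465F), and Klf4 for V560F (0.44). Among called rises ordered by size, Egr1 was 90th of 3204 with V560F and 51st of 2367 with V465F, and Srf was 2973rd of 3204 with V560F. The members' median was 0.56 for V560F and 0.41 for V465F, against -0.02 over all genes in both.

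**Figure D3:**
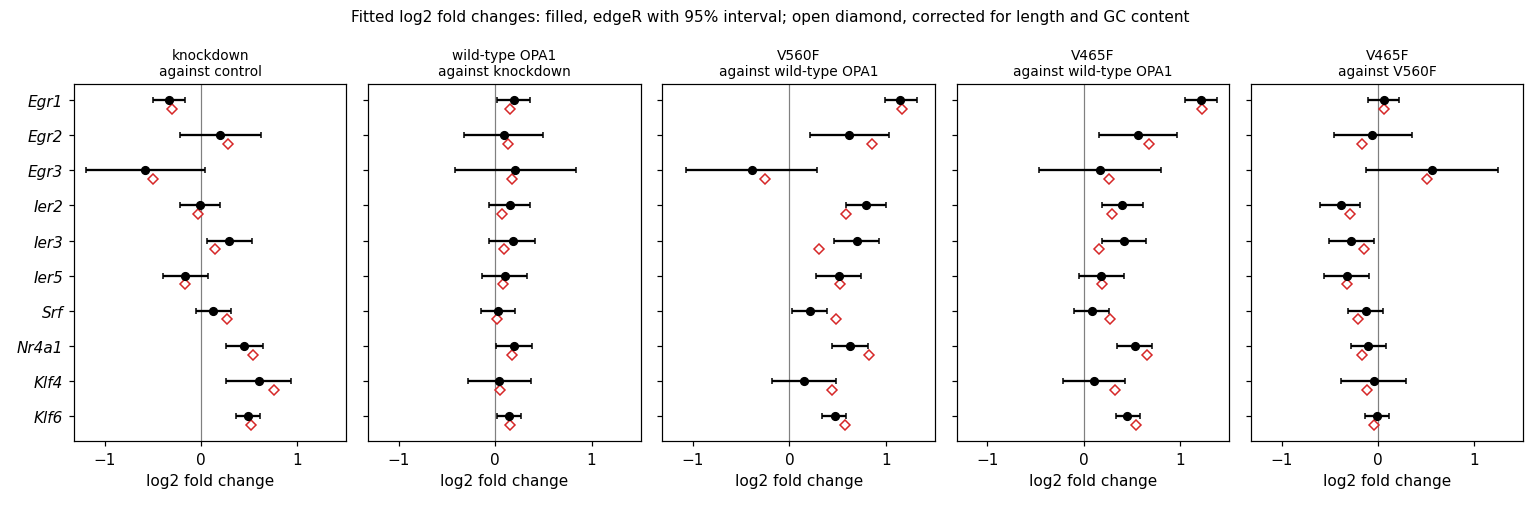
Log2 fold changes of the 10 genes in 5 comparisons. Filled points are edgeR estimates with 95% intervals, and open diamonds are values corrected for length and GC content. Egr1 lies below 0 in knockdown against control and beyond 1 in both mutants against wild type. With the correction, Ier3 and Ier2 shrink in the mutants, and Srf (which changes sign on the FPKM scale) and Klf4 grow. In the last panel, V465F against V560F, 2 of the 10 points lie above 0, and those of Ier2, Ier3 and Ier5 lie below it.

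Against knockdown and against control, which share libraries with the comparisons above, the same libraries gave these values. V560F against knockdown called 8 members (53.8% of all genes), V465F against knockdown 7 (46%), V560F against control all 10 with Egr3 lower (69.1%) and V465F against control 8 (65.3%). Beside Egr3 for V560F against control, calls that ended with 1 library left out were those of Srf for V560F against knockdown (0.17 to 0.22 without V560F replicate 2 or 3 or knockdown replicate 1) and for V465F against control (0.20 to 0.22 without V465F replicate 3 or control replicate 1). For V465F against knockdown, Ier5 was lost without V465F replicate 2 or 3 or knockdown replicate 1 or 2 (0.22 to 0.27), and Egr2 without V465F replicate 3 (0.56) or knockdown replicate 1 (0.50). The largest of these values were for Egr1 against knockdown, at 1.35 ± 0.0807 with V560F and 1.41 ± 0.0807 with V465F. Ier3 reached 1.17 ± 0.114 and 0.89 ± 0.114 against control, and 0.55 and 0.40 after correction.

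V465F against V560F compares the substitutions directly, and no member was called (0.00765% of all genes). Egr1 was at 0.06 ± 0.0784 (95% interval -0.10 to 0.22), Klf6 at -0.01 ± 0.0608 (-0.14 to 0.11) and Nr4a1 at -0.10 ± 0.0888 (-0.28 to 0.08). The 3 IER genes had values below 0, at -0.39 ± 0.0991 for Ier2, -0.28 ± 0.112 for Ier3 and -0.32 ± 0.114 for Ier5, or -0.29, -0.15 and -0.32 after correction for length and GC content. For Ier2 and Ier5 every V465F library lay below every V560F library, which held for 10.9% of all genes. DESeq2, and edgeR with no filter on low counts, called Ier2 alone. V560F replicate 2, the library with the steepest length trend, was the highest for all 3 IER genes, and Ier2 was at -0.25 without it.

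Over the 15 libraries the members' log2 levels mostly moved together, which is a description of 5 groups that share treatment and length trend. The members were also chosen by their levels in these same libraries, so r among them is partly set by that choice. The same r was not computed for pairs over all genes. Pearson's r had a median of 0.775 over the 45 pairs and was above 0 in 36, and Egr3 was negative with each of the other 9. Nr4a1 and Klf6 were the closest pair, at 0.975. Taking Egr1 as the reference, Ier2 was the closest member at 0.878 and ranked 140th of 13073 genes, then Egr2 at 0.849, Ier3 at 0.819, Nr4a1 at 0.817 and Klf6 at 0.775. Ier5 was at 0.760, Srf at 0.612, Klf4 at 0.449 and Egr3 at -0.083. The genes with patterns most like Egr1 were not members: Ift52 (0.962), Ccnb2 (0.945), Nfkbia (0.941), Scaper (0.936) and Gemin8 (0.935). Nfkbia, the NF-κB inhibitor, shared the large mutant values (1.24 ± 0.0831 with V560F and 0.91 ± 0.0828 with V465F against wild type).

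Genes that act on or beside the 10 were read from 5 lists, and the counts are by edgeR. The lists were chosen with earlier results of these data known. Genes named from them were among the 3 with the lowest adjusted p of their list in a comparison. Their adjusted p-values, here and in the paragraphs on the other lists, are therefore a description and not a test. Over all genes tested, edgeR called 19.9% higher and 16% lower with the knockdown, 24.5% and 24.9% with V560F and 18.1% and 20% with V465F, and no test of a list against these shares, or against another list, was made. Of 26 other immediate early genes, 14 rose and 2 fell with the knockdown (median 0.29), 20 were higher and 1 lower with V560F (0.42), and 13 were higher and 0 lower with V465F (0.34). On the log2(FPKM + 1) scale these became 11 and 5, 10 and 3, and 10 and 3. Fos, the AP-1 subunit, was higher by 1.53 ± 0.134 with V560F and 1.26 ± 0.135 with V465F (edgeR adjusted p = 4.12e-08 and 9.36e-07), and rose by 0.56 ± 0.147 with the knockdown (edgeR adjusted p = 0.00577), where Egr1 fell. Junb had 1.14 ± 0.114 and 0.69 ± 0.114 with the mutants and did not pass with the knockdown (-0.19 ± 0.116, edgeR adjusted p = 0.212). Jund fell with the knockdown by 0.64 on the log2 scale (SE 0.0967, edgeR adjusted p = 5.75e-05).

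Factors that carry signals to SRF and CREB were the second list. Of 14 SRF cofactors and CREB factors, 1 rose and 3 fell with the knockdown, and 2 were higher and 7 lower with each mutant, with medians of -0.36 for V560F and -0.25 for V465F. On the log2(FPKM + 1) scale the counts were 0 and 5 with the knockdown, 1 and 9 with V560F and 0 and 8 with V465F. Corrected for length and GC content, they were 3 and 3 with the knockdown, 4 and 7 with V560F and 3 and 7 with V465F. The corrected medians were nearer to 0, at -0.18 for V560F and -0.14 for V465F. Mrtfa, the actin-sensing cofactor, was at -0.42 ± 0.115 with the knockdown, -0.99 ± 0.127 with V560F and -1.02 ± 0.126 with V465F (edgeR adjusted p = 0.00756, 2.40e-06 and 4.50e-06). Its relative Mrtfb was at -0.54 ± 0.159, -1.40 ± 0.182 and -1.02 ± 0.175 (edgeR adjusted p = 0.0111, 2.94e-06 and 0.000143). The acetyltransferase gene Ep300 was at -0.31 ± 0.108 with the knockdown and -0.67 ± 0.111 with V465F, and it was 1.998-fold lower with V560F (95% interval of the log2 fold change -1.23 to -0.76). Corrected for length and GC content, Mrtfa was at -0.79 and Mrtfb at -1.12 with V560F.

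The third list held cytoskeletal genes that MRTF and SRF drive. Of 18 tested, 8 rose and 1 fell with the knockdown, and 9 were higher and 2 lower with each mutant. On the log2(FPKM + 1) scale the counts were 4 and 1 with the knockdown, 4 and 4 with V560F and 3 and 3 with V465F, so that the balance of higher and lower in the mutants depended on the scale. Tagln2, an actin-binding protein gene, was at 0.62 ± 0.0810 with V560F and 0.46 ± 0.0809 with V465F, or 0.36 and 0.30 after correction for length and GC content. Cald1, the caldesmon gene, was at -0.34 ± 0.0590 and -0.21 ± 0.0589, or -0.13 and -0.09 after correction. Of 16 genes of the Ras-ERK cascade, 4 rose and 2 fell with the knockdown, 5 were higher and 7 lower with V560F, and 3 were higher and 5 lower with V465F (0 and 4, 1 and 10, and 0 and 8 on the log2(FPKM + 1) scale). Corrected for length and GC content, the cascade had 6 higher and 2 lower with the knockdown, 7 and 5 with V560F and 5 and 5 with V465F. The balance of higher and lower in this list therefore also depended on the scaling. With V560F the ERK1 gene Mapk3 was at 0.46 ± 0.0697 (0.28 after correction) and the RSK kinase gene Rps6ka2 at -0.71 ± 0.0896 (-0.52 after correction).

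Relatives of the 10 were called in both directions. Of 14 tested relatives and EGR corepressors, 5 rose and 1 fell with the knockdown, 4 were higher and 5 lower with V560F, and 3 were higher and 6 lower with V465F (2 and 2, 0 and 8, and 1 and 9 on the log2(FPKM + 1) scale). Corrected for length and GC content, the list had 6 and 1 with the knockdown, 4 and 4 with V560F and 2 and 6 with V465F. Klf7, which promotes axon growth, was lower where Klf6 was higher, at -0.46 ± 0.0824 with the knockdown, -0.97 ± 0.0863 with V560F and -0.78 ± 0.0852 with V465F (edgeR adjusted p = 0.000281, 4.20e-08 and 1.20e-06). Klf9 was at -0.97 ± 0.128 and -0.74 ± 0.125 with the mutants. Klf11 was above 0 in all 3 comparisons, at 0.27 ± 0.0671 with the knockdown, 0.35 ± 0.0672 with V560F and 0.39 ± 0.0669 with V465F.

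**Figure D4:**
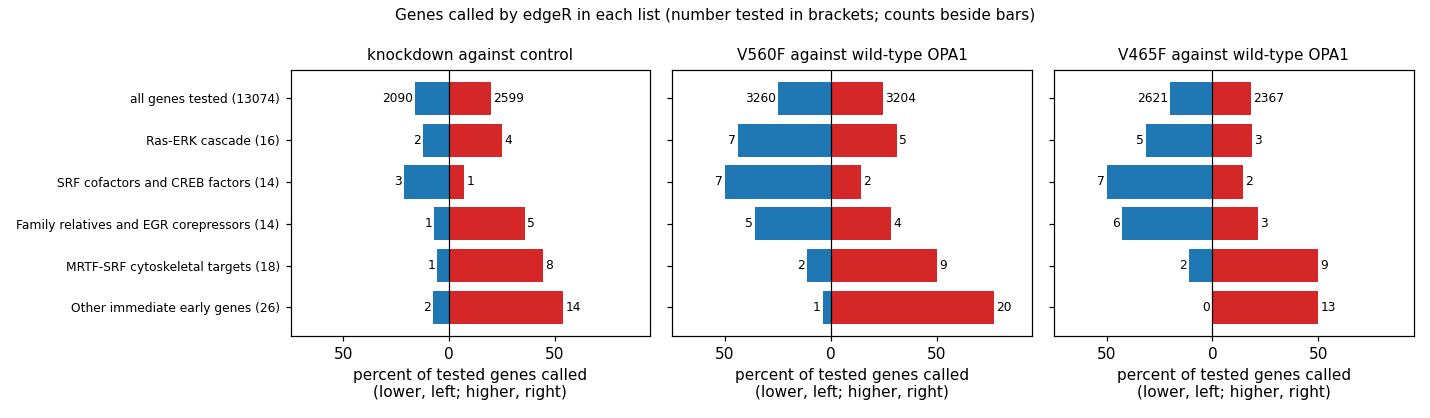
Share of each list called higher (red, to the right) or lower (blue, to the left) by edgeR in 3 comparisons, with counts beside the bars and the number tested in brackets. Other immediate early genes reach 20 of 26 higher with V560F, SRF cofactors and CREB factors reach 7 of 14 lower with each mutant, and the top bar gives all genes tested. On the FPKM scale fewer genes of every list were called higher.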

How the data were processed

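Libraries were made from TRIzol RNA (VAHTS Universal V6 chemistry in the labels' protocols). The tools fastp, HISAT2 and HTSeq, R 3.2.0 and build GRCm39 were those of the authors, per the submitters' processing notes; strand setting and annotation are not given in the sources used here. The deposited table holds raw counts per gene and library, and FPKM made by the authors; FPKM equalled counts per gene length and table total (largest relative gap 1.22e-06). Groups were taken from the sample labels.

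The quasi-likelihood test of edgeR 4.0.16 (with limma 3.58.1, R 4.3.3) was applied to the counts, with TMM scaling, filterByExpr (13074 genes kept) and 1 mean per group over 15 libraries (10 residual degrees of freedom), with Benjamini-Hochberg adjustment over all genes tested and a threshold of 0.05. The median coefficient of biological variation was 8.22%. Gene length was taken from FPKM and base composition from GENCODE M21, giving both for 12510 genes (95.7%), corrected with a spline of 5 degrees of freedom. Alternatives were DESeq2 1.42.0, its size factors, no filter, the 6 libraries compared, a replicate block, limma-trend on log2(FPKM + 1), the length and GC correction and each library left out; leaving out V560F replicate 2 with wild-type replicate 3 was chosen after seeing the data. Fits were also run on simulated data without a length trend, which therefore cannot show how the fit behaves under the trend seen here.

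The members and gene lists were chosen with earlier results of these data known. Named genes were the 10 members, Opa1, up to 3 genes of each list with the lowest adjusted p per comparison, and the 5 most like Egr1; those printed were picked from these after their values were seen. Promoter windows were read from RefSeq on GRCm38.p6, an older build than the table's, so they were matched by symbol only.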

Additional observations from a re-analysis of the deposited data

How the results depend on the processing

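Counts of called members stayed within 1.5 times of those reported except as follows. For knockdown against control, 5 became 3 without control replicate 2, where Ier3 and Klf4 were lost. For V560F against wild type, 8 became 5 with limma-trend on log2(FPKM + 1). For V465F against V560F, 0 became 1 (Ier2) with DESeq2, with no filter and without V560F replicate 1. A count could stay while its genes changed. With the length and GC correction Srf was called in place of Ier3 for knockdown against control and for V465F against wild type. With 1 library left out, members called ranged from 3 to 4 for knockdown against control, 0 to 0 for wild type against knockdown, 6 to 8 and 4 to 6 for V560F and V465F against wild type, and 0 to 1 between the mutants. They ranged from 7 to 8 and 5 to 7 for V560F and V465F against knockdown, and from 9 to 10 and 7 to 8 against control. Where 2 libraries remained in a group, they were assumed to vary like the other groups. Leaving out V560F replicate 2 with wild-type replicate 3, the libraries farthest from their groups in the length trend, kept every count of members within 1.5 times.

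Among values called by edgeR, those of Srf changed sign on the log2(FPKM + 1) scale. They became -0.04 for V560F against wild type, -0.03 for V560F against knockdown, and -0.05 and -0.07 for V560F and V465F against control. Values not called changed sign too. Among them were Srf for V465F against wild type (-0.07) and knockdown (-0.06), and Klf4 for V560F and V465F against wild type (-0.05 and -0.03). Against control that scale moved the median of all genes by -0.27 and -0.22. For the knockdown it called Egr3 (-0.21, limma adjusted p = 0.0443) and Ier5 (-0.27, limma adjusted p = 0.0357), and lost Ier3.

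Replicate numbers did not pair the libraries: same-numbered libraries had correlations of -0.161 to 0.0831 in their deviations from the group means (30 pairs, 0 over 0.1), and 6 of 15 correlated best with their own number. With a replicate block 4 members were called for knockdown against control, without Ier3 (0.29, edgeR adjusted p = 0.0585), 6 for V465F against knockdown, and as many as reported for the other comparisons.

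Over the whole table, wild type against knockdown gave 0 genes, 40 with no filter, 5 with DESeq2, 3 with only the 6 libraries and 2 without the 2 libraries named. V465F against V560F gave 1 gene, 580 with no filter, 147 with DESeq2, 71 with the length and GC correction, 17 without those 2 libraries, 3 with the block, 0 with only the 6 libraries, and 0 to 818 with 1 library left out. Egr3, Egr2 and Klf4 are limited by their counts.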
